A study of Saccharomyces cerevisiae with 167 samples.

Results

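On the intergenic arrays of this series, a long gap between 2 open reading frames (ORFs) was spotted as several consecutive segments, each a probe of its own. Such probes carry the letter i, the name of the ORF to their left and a segment number, as in iYGR087C-0 and iYGR087C-1, and every probe named in this way was taken. The rule found 444 segments in 207 regions, out of 5811 intergenic probes named after an ORF and 13029 probes on the whole array. In 202 regions, with 439 probes, more than 1 segment was present: 176 regions had 2 segments, 20 had 3, 4 had 4, 1 had 5 and 1 had 6. The other 5 regions had 1 segment on the array and entered no comparison between segments. The tiled regions gave 237 pairs of neighbouring segments. All 444 segments had a value on every array, so none was lost to a filter.

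The arrays followed histone H4, acetylated H4 and the remodelling subunit Snf2 in budding yeast, Saccharomyces cerevisiae, under heat shock and in stationary phase. H4-Myc and Snf2-Myc, proteins carrying a Myc tag, were precipitated with an anti-Myc antibody after formaldehyde cross-linking, and acetylated H4 with an antibody against the acetylated histone. For the 3 arrays that set acetylated H4 of stationary cells directly against log-phase cells, however, the label names the anti-Myc antibody. Each array gives the log2 ratio of its Cy5 to its Cy3 sample, with no dye swap.

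Both H4 and acetylated H4 had 3 arrays of heat-shocked against unstressed cells and 3 of stationary against log-phase cells, called direct comparisons here. Both also had 3 arrays against genomic DNA in each of 4 states, namely 30 °C, 39 °C, log phase and stationary phase. In the same 4 states, 3 arrays each set acetylated H4 directly against H4. Snf2 was set against input DNA on 3 arrays at 30 °C and 5 arrays after heat. Time courses in wild-type and snf2 deletion cells, against genomic DNA, carry the codes T0, T5, T15, T30, T60, T300 and T900, for which the chromatin labels give no unit, with 2 or 3 arrays per code, strain and antibody. The 2 later sets of acetylated H4 deletion arrays name genomic DNA of the deletion strain as their reference, while the other sets name wild-type DNA. A further 32 arrays measured RNA on the same probes, among them 3 of heat-shocked against unstressed cells and 3 of stationary against log-phase cells. Nothing in the labels says that replicate arrays came from separate cultures, so the p-values below measure the spread between arrays, which may be technical.

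Nucleosomes are built on an octamer of histones that includes H4, and a promoter that is being switched on often loses nucleosomes over the stretch where activators and the transcription machinery bind. Acetylation of the H4 tail is widespread at the promoters of active genes. SWI/SNF is an ATP-driven complex that slides or evicts nucleosomes, and Snf2 is its catalytic subunit. Most yeast promoters are short, and the long ones belong largely to genes with complex control, such as HO, so a region split over several probes can show at which end of a long promoter chromatin changes.

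Positions were not read from the arrays. The annotated order of the genes (assembly R64, used for names and neighbours only) puts each region to the right of the ORF it is named after, and segment 0 was taken to lie next to that ORF. Across 183 regions, the H4 heat change of the first segment had a Pearson r of 0.44 with the left ORF and 0.01 with the right ORF, while the last segment had 0.35 with the right ORF and 0.11 with the left. Acetylated H4 over genomic DNA at 30 °C, from arrays other than the heat arrays, had 0.66 and 0.34 for the first segment with the left and the right ORF. For the last segment it had 0.59 with the right ORF and 0.39 with the left. Not every measure showed this order: in H4 on the stationary arrays the last segment had 0.42 with the left ORF and 0.39 with the right. Chromatin was sheared to fragments of under 1 kb, so neighbouring segments partly share fragments. As a check of the strain labels, the probe of the SNF2 ORF read -0.12 to 0.42 on the 20 wild-type H4 time-course arrays and -2.80 to -0.85 on the 19 deletion arrays, with no overlap. On the acetylated H4 arrays it read -1.52 to -0.25 in 20 wild-type and -3.09 to -1.20 in 19 deletion arrays, which overlap between -1.52 and -1.20. Array medians before centring lay between -0.14 and 0.26.

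Tiled regions differed from single-probe regions in where they lie. Of the 202, 73 (36.1%) sat between divergent genes and thus held 2 promoters, against 23.5% of the 5367 regions with a single probe, and 21 (10.4%) lay between convergent genes, against 25.4%. Tandem genes flanked 90 regions, 50 with the promoter end on the left and 40 on the right. Genes near the chromosome ends were common beside them: 61 of 202 (30.2%) lay within 10 ORFs of an end, against 3.58% of single-probe regions. In 30 regions the annotation places a gene that has no probe of its own on the array.

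At 30 °C and away from chromosome ends, tiled segments carried less H4 than other intergenic probes, and less acetylation for the H4 that was there. The array medians of H4 over genomic DNA were -0.16, -0.20 and -0.15 over segments, and -0.02, -0.08 and 0.00 over single probes (log2 level relative to the median probe). The ratio of acetylated H4 to H4 had medians of -0.10, -0.12 and -0.12 over segments against 0.00, 0.03 and 0.03 over single probes, so segments were below single probes on each of the 3 arrays in both measures. Near the ends, H4 had medians of -0.13, -0.09 and -0.04 in segments and -0.06, -0.11 and -0.04 in single probes, with segments lower on 1 of the 3 arrays. The ratio near the ends was lower in both kinds of probe, at -0.48, -0.49 and -0.45 in segments and -0.28, -0.31 and -0.31 in single probes. These medians are a description with no test.

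Away from chromosome ends, levels differed with the orientation of the flanking genes, over 115 divergent, 123 tandem and 28 convergent segments. Divergent segments had a median H4 level of -0.26 ± 0.01 (SD over 3 arrays) against -0.05 ± 0.03 for divergent single probes, and tandem segments -0.12 ± 0.05 against -0.03 ± 0.05. Convergent segments, which hold no promoter of a flanking gene, stood at 0.01 ± 0.05 beside 0.01 ± 0.04. By the median over the 90 tandem regions, those near chromosome ends included, the promoter end had less H4 than the far end. It was lower in 51, 61 and 54 of the 90 regions on the 3 arrays at 30 °C, and higher in 39, 29 and 36. The median of promoter end minus far end was -0.14, -0.17 and -0.13 on the 3 arrays at 30 °C, and -0.13, -0.09 and -0.10 on the 3 log-phase arrays. The ratio of acetylated H4 to H4 showed no common sign in that difference, with 0.06, -0.03 and 0.06.

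**Figure D1:**
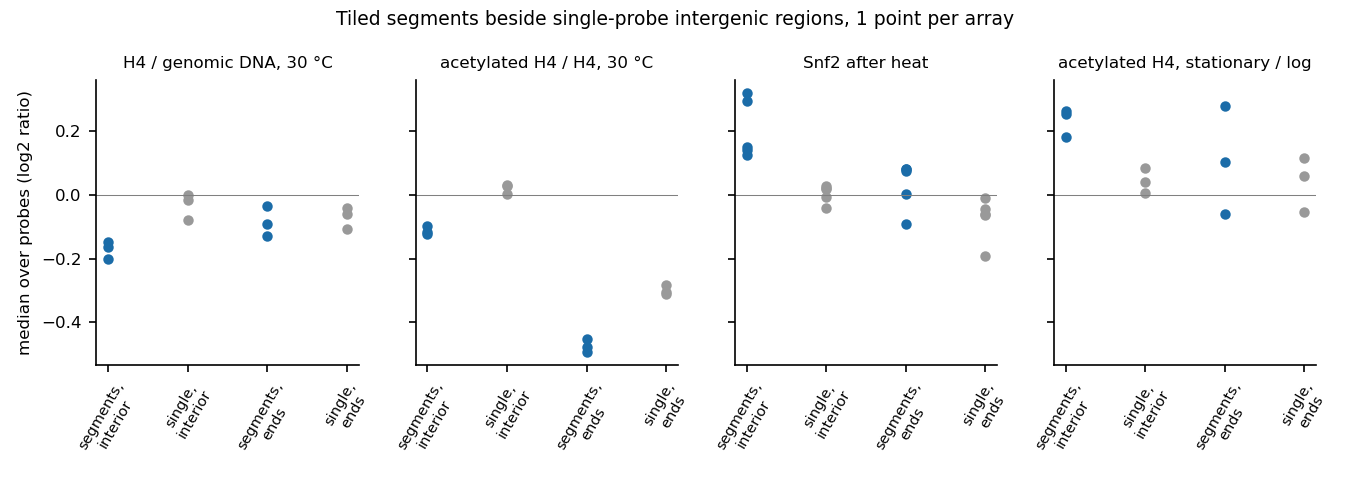
Median log2 ratio over tiled segments and over single-probe intergenic regions, away from chromosome ends (interior) and near them, in 4 kinds of array; each point is 1 array. In the interior, segments lie below single probes in H4 and in acetylated H4 over H4 at 30 °C, and above them in Snf2 after heat and in acetylated H4 in stationary phase.

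Some segments of one region differed in their level of H4. Of 237 neighbouring pairs, 38 differed in H4 at 30 °C (limma on the difference within each array, adjusted p under 0.05), which is 16.03%; of all 6028 pairs in the fit, most of them an intergenic probe against its own ORF, 18.3% were called. Any single array left out took the count to between 21 and 25, the lowest without set 1. The acetylated H4 to H4 ratio differed in 96 pairs, or 40.5%, where 49.7% of all pairs were called. The distance of either share from its background was not tested. Across the 237 pairs, H4 at 30 °C in one segment and the next had r = 0.54, against 0.20 for 4485 pairs of intergenic regions separated by 1 ORF, and the acetylation ratio had 0.59 against 0.37. These correlations describe points that share arrays and partly share fragments.

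Between COS4, a member of a subtelomeric family, and DDI3, which encodes a cyanamide hydratase, segment 0 read -1.89, -2.25 and -1.33 in H4 while segment 1 read -0.30, -0.28 and -0.32. The difference of -1.53 ± 0.48 (SD, n = 3 arrays; adjusted p = 0.000991 by limma) was the largest in H4, and the 2 segments did not overlap. Downstream of BRP1, a dubious ORF lying in the promoter of the proton pump gene PMA1, segment 0 read -1.32, -1.34 and -1.11 and segment 1, next to the vacuolar calcium pump gene PMC1, read 0.00, -0.29 and -0.06. This H4-poor stretch extended from BRP1 itself, at -1.84, and stopped within the region (difference -1.14 ± 0.16; adjusted p = 0.000779). Upstream of RPS3, a ribosomal protein gene, segment 1 read -1.22, -1.18 and -0.80 against -0.07, -0.21 and -0.15 in segment 0, a difference of 0.92 ± 0.26 (adjusted p = 0.0028). The RPS3 side thus held less H4 than the far side on every array.

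The steepest contrast in acetylation ran along the 4 segments between ADH4, an alcohol dehydrogenase gene, and ZRT1, the high-affinity zinc transporter gene. At 30 °C the log2 ratio of acetylated H4 to H4 averaged -1.16, 0.04, -1.97 and -0.26 in segments 0 to 3. Segment 2 read -1.91, -1.61 and -2.38 on the 3 arrays. Segment 1 read 0.06, 0.04 and 0.01, so these neighbours lay far apart on every array. All 3 steps were called, with adjusted p = 6.93e-05, 2.53e-05 and 3.3e-05 by limma. H4 itself averaged -0.23, -0.45, -0.39 and -1.03 in the same order, and therefore did not follow the zigzag of acetylation. The annotation places the stable unannotated transcript SUT532 in this region.

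**Figure D2:**
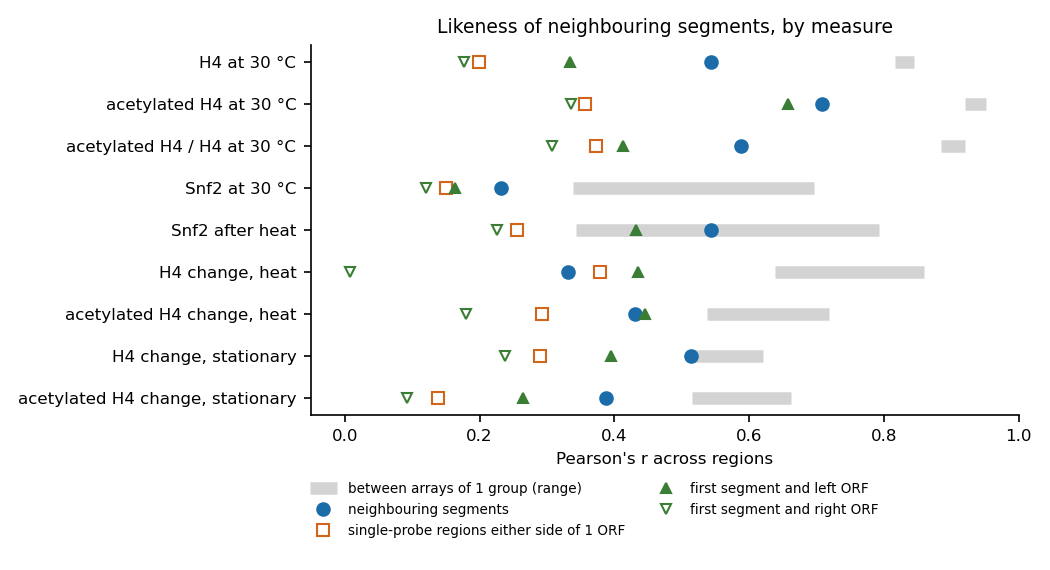
Pearson r across regions for each measure, between neighbouring segments, between single-probe regions on either side of 1 ORF and between the first segment and its left or right ORF; grey bars give the range of r between arrays of 1 group. Neighbouring segments are the most alike in acetylated H4 over genomic DNA (r = 0.71) and the least alike in Snf2 at 30 °C (r = 0.23).

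Heat shock lowered H4 over more segments than it raised it. In the direct arrays, H4 fell in 82 of 444 segments (18.5%) and rose in 33 (7.43%), where 11.5% of all probes fell and 10.0% rose (limma, adjusted p under 0.05). The median change was -0.05 over segments and 0.00 over all probes. The count of 115 was 62 without array 1, 47 without array 2 and 157 without array 3. Away from chromosome ends, 18.5% of 297 segments and 13.2% of 5145 single probes fell. Near the ends the shares were 18.9% of 143 segments and 19.3% of 192 single probes. By way of genomic DNA, where 3 arrays at 39 °C and 3 at 30 °C were each set against it and then compared, 3 segments were called, at a background of 0.307% of all probes. All 3 had moved the same way in the direct arrays: YAP5–FLO11 segment 1, RIE1–NOP19 segment 0 and HXT12–CSS1 segment 1.

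Acetylated H4 over heat shock fell in 64 segments (14.4%) and rose in 49 (11.04%), and the corresponding shares of all probes were 14.1% and 12.4%, so the segments stood close to the background. The count of 113 was 68 without array 1, 149 without array 2 and 83 without array 3. By way of genomic DNA 15 segments were called, beside 4.94% of all probes, and 3 to 22 with an array of each state left out. The ratio of acetylated H4 to H4, 39 °C against 30 °C, gave 0 called segments by limma, with 65 at an unadjusted p under 0.05 and 0.0614% of all probes called. That count was 2 with the set number as a block and 1 to 3 under other scalings or a robust fit.

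Calls were also counted region by region. Of the 202 regions, 86 had at least 1 segment called in H4, of which 17 had every segment called in one direction, and 6 had segments called in opposite directions. Those 6 regions were YDR170W-A–HSP42, ADH4–ZRT1, RDR1–FRE3 and CUP9–TRE1, together with the regions named after the subtelomeric ORFs YER183C and YOL160W. In acetylated H4, 91 regions had a call, 16 were called throughout and 1 in opposite directions, CUP9–TRE1 again. The segment pairs gave the direct test: 46 of 237 pairs (19.4%) differed in their H4 change, beside 19.8% of all pairs, and 44 (18.6%) in their acetylated H4 change, beside 16.9%. Both shares lie near their background, so they describe nothing particular to tiled regions. Without array 1 the H4 count was 14, and without array 3 the acetylated H4 count was 9.

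The region between PDC6 and CTT1 is divergent. PDC6 encodes a minor pyruvate decarboxylase, and CTT1 the cytosolic catalase, a gene of the general stress response. On the direct heat arrays, H4 in segment 1, on the CTT1 side, read -1.13, -1.15 and -1.07, while segment 0, on the PDC6 side, read -0.28, -0.27 and 0.05. Acetylated H4 read -1.13, -1.40 and -1.04 on the CTT1 side and -0.15, -0.08 and 0.08 on the PDC6 side. No array of one segment overlapped the other, and the within-array differences of 0.95 ± 0.15 in H4 (adjusted p = 0.00116) and 1.14 ± 0.17 in acetylated H4 (adjusted p = 0.0022) were called by limma. RNA on the CTT1 ORF rose by 3.57 (log2, mean of 3 arrays), whereas on the PDC6 ORF the mean was 0.46.

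**Figure D3:**
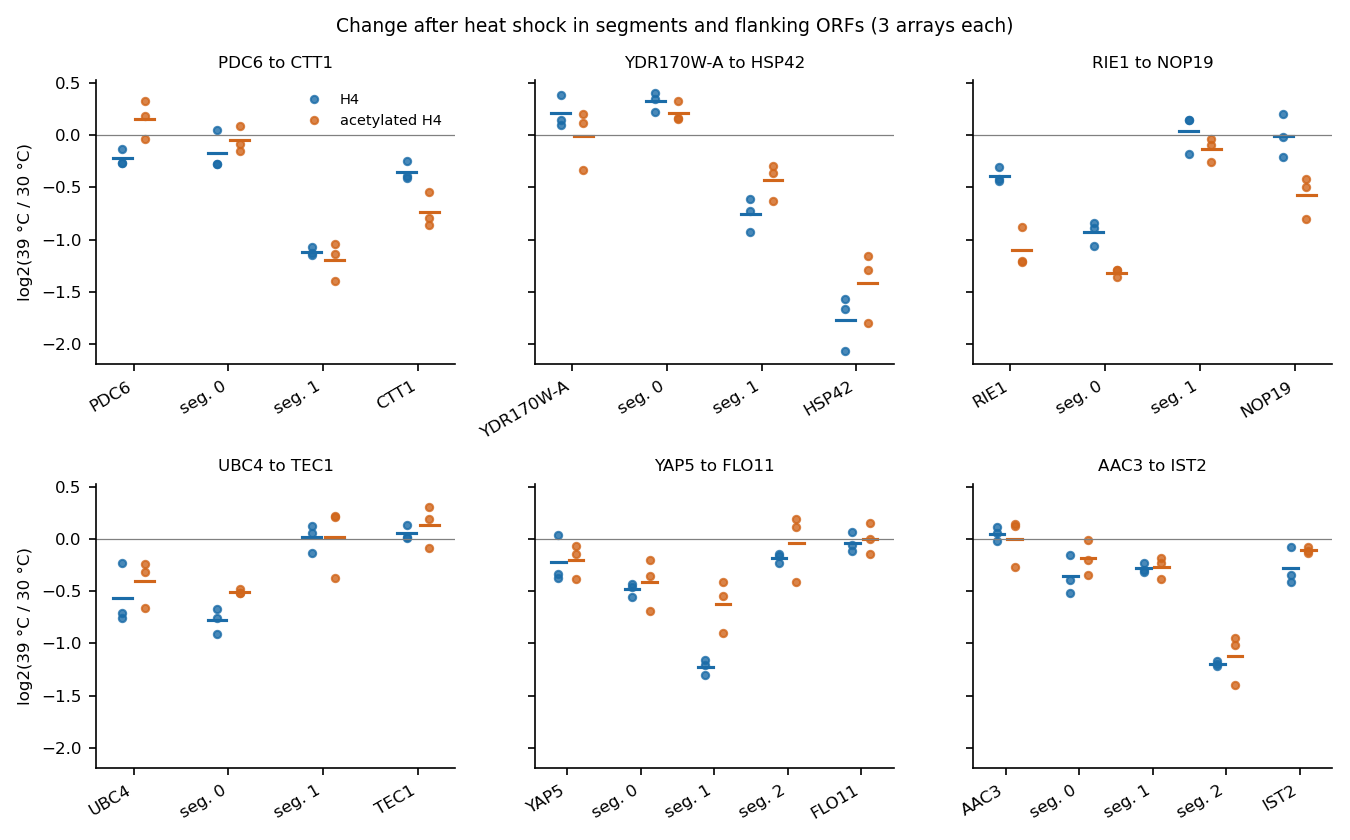
Log2 change in H4 and acetylated H4 on the direct heat arrays for the segments and flanking ORFs of 6 regions, from left to right; each point is 1 of 3 arrays and each dash their mean. At PDC6–CTT1 and YAP5–FLO11 the deepest fall sits in a single segment, and at YDR170W-A–HSP42 the neighbouring segments lie on either side of 0 in H4.

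FLO11 encodes the flocculin needed for invasive and biofilm growth, and YAP5, on its left, an iron-sensing transcription factor. The genes converge, so the gap between them lies downstream of both and holds the promoter of neither, and it was covered by 3 segments. After heat, H4 in the middle segment read -1.30, -1.21 and -1.16, the deepest fall of any segment (mean -1.22 ± 0.07; adjusted p = 9.4e-05), and by way of genomic DNA it was -1.15 ± 0.13 (SE; adjusted p = 0.00927). Segment 2, beside FLO11, read -0.23, -0.16 and -0.15. The step between these neighbours was -1.04 ± 0.03 (adjusted p = 0.000548). The FLO11 ORF itself averaged -0.04 in H4 and -0.14 in RNA, while RNA on segment 0 averaged 2.67. The annotation places YIR018C-A, which has no probe of its own, in this gap.

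Between AAC3, a mitochondrial ADP/ATP carrier gene, and IST2, an endoplasmic reticulum to plasma membrane tether gene, lies YBR085C-A, again without a probe of its own. H4 read -1.20, -1.21 and -1.17 in segment 2 and -0.29, -0.23 and -0.31 in segment 1, a step of 0.92 ± 0.07 (adjusted p = 0.000871), and acetylated H4 stepped by 0.85 ± 0.15 (adjusted p = 0.00501). RNA on segment 1 averaged 2.82 and on segment 2 1.56, against 0.53 on segment 0. As at YAP5–FLO11, the segment that lost most H4 was the neighbour of the one with the highest RNA change.

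RIE1, which encodes an RNA-binding protein, diverges from NOP19, a ribosome biogenesis gene. H4 on the RIE1 side read -1.06, -0.85 and -0.89 and acetylated H4 read -1.29, -1.36 and -1.29, the deepest acetylated H4 fall of any segment (mean -1.31 ± 0.04; adjusted p = 0.000265). On the NOP19 side the same arrays gave 0.15, -0.18 and 0.14 for H4 and -0.10, -0.26 and -0.04 for acetylated H4. RNA moved in opposite directions on the 2 ORFs, with means of 1.64 on RIE1 and -1.02 on NOP19. At UBC4–TEC1, H4 fell by 0.78 on the UBC4 side (adjusted p = 0.000953) and averaged 0.02 on the TEC1 side. In the region upstream of NCE102, a gene of the plasma membrane domain called the eisosome, segment 1 read -0.99, -1.24 and -1.03 in H4 on the direct arrays. By way of genomic DNA the change was -0.05, with levels of -1.18, -1.18 and -1.28 at 30 °C and -1.81, -0.99 and -0.98 at 39 °C.

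Upstream of HSP42, a small heat-shock protein gene, the 2 segments moved apart. H4 rose in segment 0, at 0.40, 0.35 and 0.22, and fell in segment 1, on the HSP42 side, at -0.73, -0.93 and -0.61. The step of 1.08 ± 0.23 was the largest heat difference between neighbours in H4 (adjusted p = 0.00116). The ADH4–ZRT1 region showed the reverse at its promoter end. There segment 3, beside ZRT1, rose by 0.65 (0.63, 0.47 and 0.84; adjusted p = 0.00372) while segment 0 fell by 0.38 and segment 1 fell by 0.47 (adjusted p = 0.0103 and 0.0223) and ZRT1 RNA averaged -0.68. At CUP9, a transcriptional repressor gene, acetylated H4 rose beside the gene, at 0.59, 0.21 and 0.53, and fell at the far end, at -0.35, -0.60 and -0.15, a step of 0.81 ± 0.13 (adjusted p = 0.00552).

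The largest rises came from a pair of near-copies. HXT12–CSS1 and HXT11–HPF1 both lie between a hexose transporter gene and a gene of the HPF1 family of cell wall mannoproteins. They lie 7 and 13 ORFs from a chromosome end, so only HXT12–CSS1 was counted as near an end. H4 rose by 0.70 ± 0.09 in HXT12–CSS1 segment 1 and by 0.68 ± 0.15 in HXT11–HPF1 segment 1 (adjusted p = 0.00101 and 0.00228). Acetylated H4 rose there by 1.39 ± 0.13 and 1.35 ± 0.18 (adjusted p = 0.000265 and 0.000416). Both segments were H4-poor at 30 °C, with levels of -0.94 and -1.49. Over 134 chromatin arrays their values had r = 0.90, and since the loci are paralogous, each probe's own signal cannot be told apart from cross-hybridisation. On the other flank of HPF1, segment 0 of HPF1–ZPS1 rose by 0.87 ± 0.07 in acetylated H4 (adjusted p = 0.00111). All 8 segments named for H4, all 8 named for acetylated H4 and the 10 named pairs stayed called whichever single array was left out.

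In divergent regions, the H4 change at an end ran opposite to the RNA change of the gene on that side, with r near 0 for the other gene. Across 73 divergent regions, the H4 heat change of the left end had r = -0.48 with the RNA change of the left gene and 0.02 with that of the right gene. The right end had r = -0.46 with the right gene and 0.10 with the left. By rank the values were weaker, with rho = -0.23 and -0.19 for the gene on the same side and 0.03 and 0.14 for the other gene. The difference between the ends had r = -0.61 with the difference in RNA (Spearman rho = -0.47). It was -0.58 without the 2 regions farthest from the median RNA difference and -0.44 without the 5 farthest, which were PDC6–CTT1, IME1–RPL43B, RIE1–NOP19, YKR075C–ECM4 and UBC4–TEC1. For acetylated H4 the r was -0.45 (rho = -0.29) and -0.29 without those 5. For the stationary arrays it was -0.21 in H4 and -0.08 in acetylated H4. These are descriptions across regions on shared arrays, not tests. The sides rest on the segment order taken above, for which these same H4 heat changes were 1 of the measures shown.

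**Figure D4:**
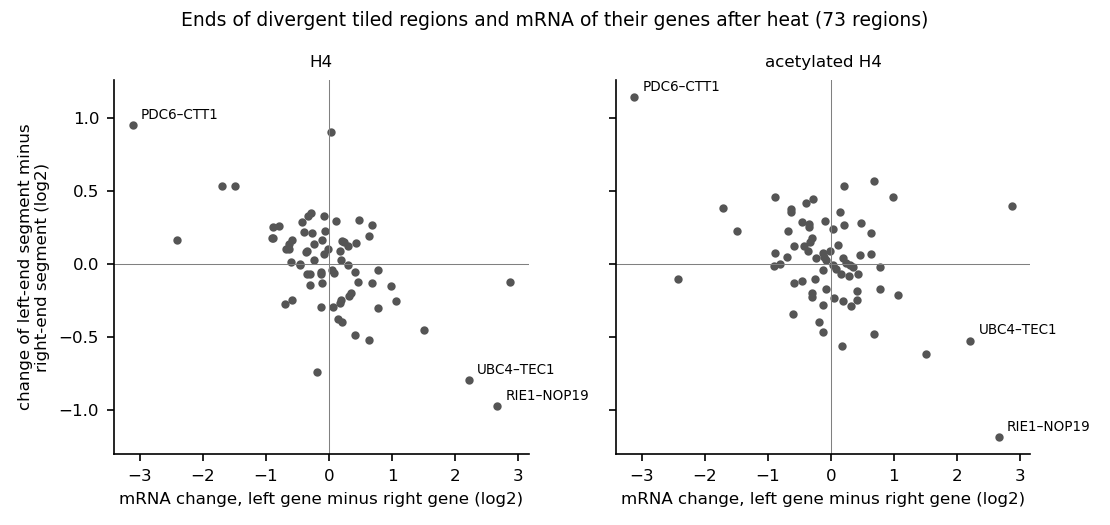
For the 73 tiled divergent regions, the difference between left and right end in the heat change of H4 and of acetylated H4, against the difference in RNA change of the left and right gene (log2, means of 3 arrays); each point is 1 region. The points slope downward with r = -0.61 for H4 and -0.45 for acetylated H4.

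RNA hybridised to the segments themselves too. After heat, 21 of 444 segments (4.73%) gave at least 2-fold more RNA signal on every direct array, beside 4.01% of single probes. Segments of regions that hold a gene without a probe made up 9 of them, 13.2% of 68 such segments, against 12 of 376 (3.19%) elsewhere. The largest was SOL1–ARC35 segment 1, over the stress-induced ORF YNR034W-A, with a mean of 3.05 ± 0.25. H4 there read -0.78, -0.65 and -0.58 and acetylated H4 -0.77, -0.94 and -0.67. Of the 21 segments with more RNA, 11 were called lower in H4 and 0 higher by limma, with a median of -0.28. Of the other 423, 71 were lower and 33 higher, with a median of -0.04.

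Promoter ends of stress genes lost H4. Of the 236 promoter ends at tiled regions, 50 were lower and 13 higher in H4 after heat. Both chaperone promoters among them were lower, HSP42 at -0.76 and HSP10, a mitochondrial chaperonin gene, at -0.49. Of 6 promoters of the general stress response, 5 were lower in H4 and 5 in acetylated H4, where 40 of the 236 ends were lower and 17 higher in acetylated H4. These were YRO2 at -0.66, HXK1, a hexokinase gene, at -0.53, CTT1, YGP1, a secreted glycoprotein gene, at -0.77, and GAC1, a phosphatase subunit gene, at -0.30 in H4. MSN4, the gene of a stress transcription factor, stood at -0.08 (adjusted p = 0.447) and was not called. The far segment was also called at YGP1 (-0.33) and GAC1 (-0.27) but not at YRO2 (-0.13), HXK1 (0.08) or HSP10 (-0.17).

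Among the other lists, cell surface and sugar transport promoters had only lower calls in H4 after heat. Transcription factor and plasma membrane transport promoters had H4 calls in both directions. Among 14 cell surface promoters 4 were lower in H4: HSP150 at -0.79, YGP1, and the divergent pair PIR1 and PIR3 at -0.59 and -0.30, all of them cell wall or secreted protein genes. FLO1, FLO9 and FLO10, flocculin genes like FLO11, were at -0.18, 0.13 and -0.01 in H4, none of them called. In acetylated H4, 3 of the 14 promoters were higher and 2 lower, with FLO10 among the higher (0.37; adjusted p = 0.0213 by limma). Of 8 promoters for sugar transport and glucose repression, 1 was lower in H4, the hexose transporter gene HXT13 at -0.33. HXT3 at 0.19 and HXT7 at 0.06 were not called in H4. In acetylated H4, 2 of the 8 were lower and 0 higher, with HXT7 among the lower (-0.35; adjusted p = 0.0433 by limma). Of 10 transcription factor promoters, NRG1 (-0.40) and TOS8 (-0.43) were lower and CUP9 (0.23) was higher. Among 6 plasma membrane transport promoters, ZRT1 and the ferric reductase gene FRE3 (0.32) were higher and the drug efflux pump gene PDR5 (-0.42) was lower.

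Fewer genes of other groups have tiled promoters. Of 2 ribosomal protein promoters, RPS3 was higher (0.46; adjusted p = 0.00714), and RPL43B, at 0.22, was not called. All 3 glycolytic promoters, CDC19, ENO1 and TDH2, were not called, at -0.19, 0.04 and -0.02. The single cell cycle promoter, HO, which encodes the mating-type endonuclease, was at 0.01 in H4. The single mating and meiosis promoter, IME1, the gene of the master regulator of meiosis, was at 0.09 in H4. In acetylated H4, HO was lower (-0.38; adjusted p = 0.0232 by limma).

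Snf2 was found over tiled segments more than over other intergenic probes after heat. Away from chromosome ends the array medians on the 5 heat arrays lay between 0.12 and 0.32 for segments and between -0.04 and 0.03 for single probes, without overlap. Divergent segments stood highest, at 0.34 ± 0.15 (SD, n = 5 arrays) against 0.01 ± 0.03 for divergent single probes. At 30 °C the difference was smaller, with array medians of 0.038, 0.160 and 0.055 for segments and 0.005, 0.155 and -0.001 for single probes. Divergent segments and single probes stood at 0.11 ± 0.05 and -0.01 ± 0.04, and tandem ones at 0.09 ± 0.11 and 0.02 ± 0.07. In convergent regions the order was the reverse, with -0.08 ± 0.07 and 0.14 ± 0.20. The 8 arrays correlated less with each other than the H4 arrays did: the lowest r between a pair of arrays was 0.34 both at 30 °C and after heat, against 0.82 for H4 at 30 °C. No member probe was called for heat minus 30 °C: limma gave 0, with 99 at an unadjusted p under 0.05 and 0.0614% of all probes called. The count was also 0 with the set number as a block, and 2 with arrays scaled to equal spread.

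Snf2 differed between segments of one region in a few places. After heat, 19 of 237 pairs were called (8.02%), beside 5.80% of all pairs, and the count was 9 without array 1, 2 without array 2, 3 without array 3, 2 without array 4 and 17 without array 5. At 30 °C it was 4 pairs, beside 2.23%, with 0 when array 1 and 37 when array 3 was left out. The 0 pairs called for the change between the states had 26 at an unadjusted p under 0.05 by limma, with 0% of all pairs called.

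On the heat arrays, the region between YBL109W and YBL108W, beside a chromosome end, had Snf2 values of 1.17, 1.21, 1.42, 1.18 and 1.29 in segment 0 and of 0.39, 0.31, 0.14, 0.14 and 0.11 in segment 1. It was the only one of the 5 named heat pairs that stayed called whichever array was left out (difference 1.04 ± 0.20; adjusted p = 0.011). Upstream of HSP42, Snf2 read 0.55, 0.45, 1.10, 0.96 and 0.41 on the HSP42 side and -0.51, -0.45, -0.16, -0.32 and 0.05 in segment 0 (difference -0.97 ± 0.38; adjusted p = 0.0183). Here the segment with more Snf2 was the one that lost H4 after heat. Along YAP5–FLO11, the middle segment read 1.07, 0.85, 1.69, 1.42 and 0.86 against 0.09, 0.33, 0.59, 0.32 and -0.24 beside FLO11 (difference 0.96; adjusted p = 0.012). The middle segment already read 0.36, 0.92 and 0.82 at 30 °C. Other neighbours that differed in H4 loss had no called Snf2 difference after heat: it was -0.21 (adjusted p = 0.378) at PDC6–CTT1, -0.32 (adjusted p = 0.357) between segments 1 and 2 of AAC3–IST2 and 0.48 (adjusted p = 0.0598) at RIE1–NOP19.

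At HO, a textbook target of SWI/SNF, Snf2 at 30 °C read 0.80, 1.52 and 0.77 in the middle of 3 segments and 0.01, -0.29 and -0.03 beside the gene. After heat the middle segment ranged from -0.52 to 0.44 over 5 arrays. The 2 segments did not overlap at 30 °C, but the step between them was not called at 30 °C (-1.13; adjusted p = 0.078) nor after heat (-0.57; adjusted p = 0.0521). At GTT1–YPS6, the tandem region between a glutathione transferase gene and a yapsin protease gene, segment 1 read 0.85, 2.17 and -0.17 at 30 °C and 2.18, 0.34, 1.00, -0.30 and 0.21 after heat, a spread wider than its difference from segment 0 (adjusted p = 0.141 and 0.178). Its 2 segments did differ in the acetylation ratio at 30 °C, by 0.73 (adjusted p = 0.000728), and both gained acetylated H4 with heat, at 0.58 each (adjusted p = 0.0055 and 0.0053).

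In stationary phase more tiled segments were higher than lower in acetylated H4, the reverse of all probes. On the direct arrays 79 of 444 segments (17.8%) were higher and 28 (6.31%) lower, where 8.51% of all probes were higher and 12.1% lower. Away from chromosome ends 22.6% of segments were higher, against 9.31% of single probes, and array medians were 0.25, 0.18 and 0.26 against 0.01, 0.04 and 0.08. Medians also followed the orientation of the flanking genes in both kinds of probe. Divergent segments stood at 0.32 ± 0.08 (SD over 3 arrays) against 0.19 ± 0.15 for divergent single probes. Tandem segments stood at 0.19 ± 0.07 against 0.08 ± 0.05, and convergent segments at 0.08 ± 0.07 against -0.22 ± 0.14. Near the ends 8.39% of segments were higher, against 9.90% of single probes. These counts leaned on all 3 arrays: the 107 calls became 41, 27 and 14 without arrays 1, 2 and 3. By way of genomic DNA limma called 0 segments, with 102 at an unadjusted p under 0.05 and 0% of all probes called, although the median over segments was 0.14 beside 0.01 over all probes.

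H4 itself rose in 21 segments in stationary phase and fell in 0 (limma; 121 segments at an unadjusted p under 0.05 in either direction), beside 2.33% and 0.637% of all probes. Without arrays 1, 2 and 3 the count was 0, 1 and 20. By way of genomic DNA it was 0, with 62 at an unadjusted p under 0.05 and 0% of all probes called. The ratio of acetylated H4 to H4 was higher in 22 and lower in 8 segments, beside 2.28% and 2.63%, and 0 with any 1 set left out. Neighbouring segments differed in the acetylated H4 change in 28 pairs (11.8%), beside 17.3% of all pairs, but in 3 without array 2 and in 0 without array 3. In H4 limma called 0 pairs, with 33 at an unadjusted p under 0.05 and 0% of all pairs called; without array 3 it called 4.

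The strongest rise in both was in the region right of YLR162W, which has a single segment on the array, in the part of chromosome XII that holds the ribosomal DNA. H4 read 1.78, 1.28 and 2.09 there, and acetylated H4 1.75, 1.38 and 1.73 (adjusted p = 0.018 and 0.0125). Probes of the ribosomal DNA itself averaged 0.92 to 2.92 in H4 on the same arrays. ASP3-3–YLR159W segment 1, beside an asparaginase gene of the same chromosome, read 1.09, 0.94 and 1.22. All 4 segments named for H4 lost the call when array 1 was left out, with adjusted p of 0.0808 to 0.103.

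For acetylated H4, rises were also named at TYE7–YOR345C segment 1 and STB3–SEC7 segment 1. STB3–SEC7 segment 1 read 1.26, 1.22 and 1.12, with 0.84 by way of genomic DNA. TYE7–YOR345C segment 1, at the far end of the promoter of a glycolytic activator gene, read 1.23, 0.85 and 1.54, and was not called without array 3 (1.04; adjusted p = 0.0516). Both rises kept their sign by way of genomic DNA, where 0 segments were called in stationary phase.

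The 4 named falls were smaller by way of genomic DNA or turned their sign. Segment 1 of NNF2–UTP22 read -2.20, -0.88 and -1.94 in the direct arrays and -0.15 by way of genomic DNA. Segment 1 of FLO9–GDH3 read -1.83, -1.07 and -1.87 against -0.16, and RMD6–DLD3 segment 0 read -1.32, -1.34 and -1.31 against -0.15. YAR047C–FLO1 segment 0 read -1.92, -1.98 and -0.98 directly and 1.02 by way of genomic DNA, so its sign turned. Without array 3, NNF2–UTP22 (-1.54; adjusted p = 0.0805) and FLO9–GDH3 (-1.45; adjusted p = 0.0524) were not called. The antibody named for these direct arrays differs from that of the genomic DNA arrays, as given above, and its part in the difference was not tested.

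Within regions, the largest contrast in stationary phase was at YFL051C–ALR2, beside a magnesium transporter gene. There acetylated H4 read 1.72, 0.77 and 0.98 in segment 0 and -1.34, -1.05 and -0.46 in segment 1 (difference 2.11 ± 0.85; adjusted p = 0.0137). Segment 0 was also 1 of the 4 segments named for a rise in H4, with a mean H4 change of 1.325 without array 1 and 1.685 without array 2. The H4 step between the 2 segments was not called. At HXT3–SVF1, the promoter end of the low-affinity hexose transporter gene HXT3 read 0.80, 0.35 and 0.61 and the far end -1.39, -0.73 and -1.21 (difference 1.70 ± 0.57; adjusted p = 0.0126). MRX19–LYS20, a divergent region beside a lysine biosynthesis gene, had 0.35, 0.45 and 0.69 on the left and -0.87, -0.82 and -1.54 on the right. In all 3 regions the segments moved in opposite directions on every array, yet each of the 5 named pairs lost its call when an array was left out. Among 10 transcription factor promoters, 4 were higher in acetylated H4 in stationary phase and 0 lower, beside 53 higher and 13 lower of the 236 promoter ends.

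In the wild-type time course against genomic DNA, 4 segments changed in H4 over the 7 codes (limma F over 6 contrasts against T0), beside 0.346% of all probes, and 3 in acetylated H4, beside 0.499%. The H4 count was 0 without set 1 or set 2 and 2 without set 3, and the acetylated H4 count was 0 without set 2 or set 3. These few segments were again parts of the regions described above: PDC6–CTT1 segment 1, AAC3–IST2 segment 2, YAP5–FLO11 segment 1 and GAC1–SYC1 segment 0 in H4, and PDC6–CTT1, HXT12–CSS1 and HXT11–HPF1 segment 1 in acetylated H4.

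H4 on the CTT1 side of PDC6–CTT1 averaged -0.51 ± 0.14 at T0, -0.16 ± 0.20 at T15, -0.52 ± 0.34 at T60, -1.42 ± 0.14 at T300 and -1.33 ± 0.39 at T900 (SD; 2 arrays at T0, 3 later; adjusted p = 0.0013). The PDC6 side stayed between -0.27 and 0.01. Acetylated H4 on the CTT1 side went from 0.14 ± 0.05 at T0 to -1.23 ± 0.26 at T300 and -1.44 ± 0.21 at T900 (adjusted p = 0.0019). The drop fell between T60 and T300 in both. The middle segment of YAP5–FLO11 went from -0.11 ± 0.06 to -1.09 ± 0.24 and -1.06 ± 0.31 at the same codes in H4 (adjusted p = 0.00191), and segment 2 from -0.40 ± 0.04 to -0.33 ± 0.18 and -0.57 ± 0.21. AAC3–IST2 segment 2 reached -1.88 ± 0.10 at T300 from -0.97 ± 0.11 at T0 (adjusted p = 0.0015). GAC1–SYC1 segment 0, which is given for completeness since its T0 and T900 arrays overlapped, went from -0.89 ± 0.20 at T0 to -1.60 ± 0.29 at T300 and -1.07 ± 0.18 at T900 (adjusted p = 0.00603). Without set 1 or set 2, none of these 4 H4 time courses stayed called.

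The paralogous segments beside HPF1 and CSS1 ran the other way. Acetylated H4 in HXT11–HPF1 segment 1 went from -2.07 ± 0.22 at T0 to -0.93 ± 0.22 at T300 and -0.96 ± 0.13 at T900 in wild type (adjusted p = 0.0177), and in HXT12–CSS1 segment 1 from -1.82 ± 0.59 to -0.79 ± 0.12 and -0.84 ± 0.14 (adjusted p = 0.018). In the deletion both stood near 0 from the start, with 0.02 ± 0.14 and 0.43 ± 0.18 at T0. H4 in HXT11–HPF1 segment 1 was -1.20 ± 0.23 at T0 in wild type and -0.01 ± 0.17 in the deletion. The contrast with segment 0 was 0.35, 0.65 and 0.57 in the 3 wild-type H4 sets and 0.25, 0.14 and 0.03 in the deletion sets (change -0.41 ± 0.09 SE; adjusted p = 0.0227), and was not called with arrays scaled to equal spread. Both acetylated H4 time courses lost the call whichever set was left out.

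**Figure D5:**
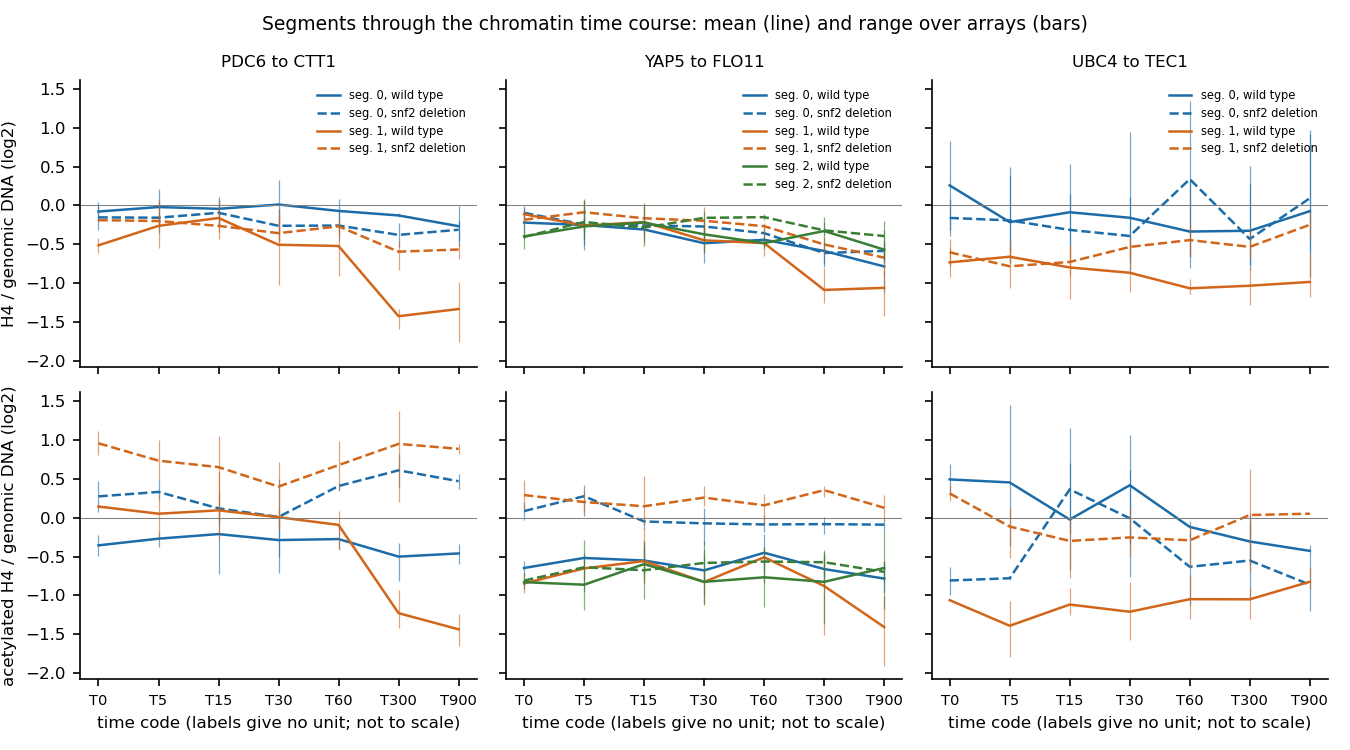
Mean log2 level of H4 and acetylated H4 over genomic DNA by time code for the segments of PDC6–CTT1, YAP5–FLO11 and UBC4–TEC1 in wild-type (solid) and snf2 deletion (dashed) cells; bars are the range over 2 or 3 arrays, and the codes are not to scale. In wild type the CTT1-side segment drops between T60 and T300, and in the deletion its acetylated H4 stays between 0.40 and 0.96.

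In snf2 deletion cells the CTT1 side went from -0.19 ± 0.02 at T0 to -0.59 ± 0.21 at T300 and -0.57 ± 0.11 at T900 in H4, and its acetylated H4 was 0.96 ± 0.22, 0.95 ± 0.65 and 0.89 ± 0.09. The test of the difference between strains over the course gave an unadjusted p of 7.45e-05 for acetylated H4, which became 0.127 after adjustment over all probes, so it was not called. No segment was called in that interaction. In H4 limma gave 0, with 6 at an unadjusted p under 0.05 and 0% of all probes called, and in acetylated H4 0, with 11 at an unadjusted p under 0.05 and 0.0230% of all probes called. The acetylated H4 count was 1 without set 1, with the set number as a block or without centring.

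The strains were also compared by the contrast between segments. Over all 7 codes, the within-array difference of neighbouring segments differed between the strains in 6 of 237 pairs in H4 (2.53%), beside 0.565% of all pairs, and in 33 pairs in acetylated H4 (13.9%), beside 5.61%, which lay in 31 regions. The H4 count was 7, 0 and 2 without sets 1, 2 and 3, and the acetylated H4 count 43, 7 and 13. The fit took each array as independent, although the arrays of a strain came from 3 sets at several codes. Deviations of arrays of the same set had a mean r of 0.36 in H4 and 0.23 in acetylated H4. The p-values and SE between strains thus do not measure the spread between sets. In all 6 H4 pairs the segment with the lower wild-type level had a higher level in the deletion than in wild type. The same held in 30 of the 33 acetylated H4 pairs, beside 166 and 140 of all 237 in H4 and acetylated H4. The level of its neighbour does not enter these counts. The difference between the segments was smaller in the deletion in 6 of 6 H4 pairs and 18 of 33 acetylated H4 pairs. A low wild-type value enters both quantities, so this tendency is a description.

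Upstream of GAC1, segment 0, beside the gene, averaged -0.97 in wild type and -0.39 in the deletion in H4 over all codes, while segment 1 averaged -0.40 and -0.36. By set, the difference between the segments was -0.57, -0.59 and -0.56 in wild type and 0.12, 0.02 and -0.19 in the deletion (change 0.54 ± 0.09 SE; adjusted p = 0.00185). The groups did not overlap. At PDC6–CTT1 the difference was 0.76, 0.45 and 0.60 in the 3 wild-type sets and 0.31, 0.12 and 0.00 in the deletion sets (change -0.47; adjusted p = 0.00185), and it had the same sign of change at 6 of 7 codes. At SRP40–PTR2, upstream of a peptide transporter gene, the differences were 0.36, 0.35 and 0.45 against -0.09, -0.08 and -0.09 (change -0.45 ± 0.10; adjusted p = 0.0144). The contrast along each of these promoters was thus larger in wild type than in the deletion in every set. Still, 0 H4 pairs were called without set 2, these 3 regions included. SRP40–PTR2 lost its call whichever set was left out (limma, adjusted p = 0.0856, 0.721 and 0.0539 without sets 1, 2 and 3).

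In acetylated H4 the largest change was at UBC4–TEC1, between a ubiquitin-conjugating enzyme gene and the gene of a filamentous growth transcription factor. The TEC1 side averaged -1.10 in wild type and -0.08 in the deletion, and the UBC4 side 0.07 and -0.47. By set the difference was 0.74, 1.29 and 1.36 in wild type and 0.19, -0.56 and -0.45 in the deletion (change -1.56 ± 0.19 SE; adjusted p = 1.21e-06). Upstream of HXK1, the segment beside the gene averaged -1.19 in wild type and 0.00 in the deletion, while its neighbour averaged -0.45 and -0.51 (change 1.25 ± 0.10; adjusted p = 4.00e-10). In YAP5–FLO11 the middle segment averaged -0.81 and 0.22, and the segment beside FLO11 -0.77 and -0.65 (change 0.92 ± 0.11; adjusted p = 1.27e-06). The middle segment, which lost most H4 after heat, was thus also the one whose acetylated H4 level differed most between strains. The references of the deletion arrays differ from those of wild type in sets 2 and 3, and their part in levels was not tested.

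The 2 regions with the most segments had no H4 call after heat. The 6 segments between TDA8 and YAL064W, near a chromosome end, had H4 heat changes that were all uncalled (adjusted p between 0.13 and 0.99). Segment 4 there rose in acetylated H4 after heat (0.41; adjusted p = 0.0147) and in stationary phase, at 1.27, 0.57 and 0.81 (adjusted p = 0.025), while segment 5 read -0.18, -0.63 and -0.68. Between YEL073C and RMD6, 5 segments averaged between -0.02 and 0.17 in H4 after heat. Acetylated H4 rose after heat at both ends, by 0.43 in segment 0 (adjusted p = 0.023) and 0.43 in segment 4 (adjusted p = 0.0197), with 0.09 in segment 2 (adjusted p = 0.62). Their acetylation ratio at 30 °C descended from 0.41 and 0.38 in segments 0 and 1 to 0.02, -0.29 and -0.12, and the step from segment 1 to segment 2 was called (adjusted p = 0.0273).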

How the data were processed

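The deposited values are log2 ratios of Cy5 to Cy3, 1 per probe and array. Per the labels the arrays have 2 colours and no dye swap. The base came from the values: below a ratio of 0.5, 100% of the ratios were whole thousandths in base 2 (tolerance 0.02), against 5.99% for the natural logarithm and 3.45% for base 10. Background correction and normalization by the authors: not given in the sources used here, nor are intensities; precision rests on how many arrays each group has. Of 13029 probes on 167 arrays, 10 lacked a value on at least 1 array. Each array was centred on its median. Comparisons used limma 3.58.1 in R 4.3.3 over all probes, two-sided, with Benjamini-Hochberg adjustment and a threshold of 0.05: the mean of direct arrays against 0, the difference of 2 groups, and for time courses an F test over 6 contrasts. Neighbouring segments were compared by their difference within each array (lower-numbered minus higher-numbered), fitted together with every intergenic probe minus its own ORF. The fits were tested on simulated data. Repeats 2-a and 2-b of 1 deletion sample (r = 0.907) were averaged.

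Members and gene lists were chosen with earlier results of these data known. Named were up to 4 probes a direction and 5 pairs a comparison, by size among those called with the same sign on every array, with groups that do not overlap or, between strains, with the same sign at all 7 codes, and up to 2 promoters a gene list. HO, IME1, FLO11, BRP1, GTT1 and the regions with most segments were described in any case. Further promoters of the lists, UBC4–TEC1 in heat, CUP9–TRE1 and PDC6–CTT1 between strains were added after their values were seen. A result at 1 region is not reported here. The same-numbered Snf2 arrays of both states correlated at 0.12, 0.19 and 0.11 in their deviations. Their best correlation with an array of another number was 0.04, 0.38 and 0.51. The main Snf2 fit left the arrays unpaired, and a fit with the set number as a block was run beside it. Elsewhere some same-numbered arrays correlated at or below 0.1, and set numbers were not taken as pairs. Python 3.11.15 with pandas 2.3.3, numpy 2.4.6, scipy 1.17.1 and matplotlib 3.10.9 did the rest.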

Additional observations from a re-analysis of the deposited data

How the results depend on the processing

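Counts of calls and the named results were recomputed without centring (which does not enter differences within an array), with arrays scaled to 1 median absolute deviation, with robust eBayes, over probes complete on every array, with a replicate block where groups share set numbers, and without each array or set. Of the 97 named results, 411 recalculations other than those leaving out an array kept the direction and the side of the threshold, 39 kept the direction but lost the call, and 1 reversed: YAR047C–FLO1 segment 0 in stationary acetylated H4, at 1.02 by way of genomic DNA. Leaving out an array kept 201 and cost 100 calls. By way of genomic DNA the counts of segments were 3 for H4 and 15 for acetylated H4 after heat, and 0 and 0 in stationary phase. The ratio of acetylated H4 to H4 after heat had 1 call without centring, 3 scaled, 1 robust and 2 with the replicate block; in stationary phase it had 0 scaled. Snf2 heat minus 30 °C had 2 scaled. H4 over genomic DNA after heat had 7 scaled and 0 with the replicate block. The H4 time course had 13 with the block, and the acetylated H4 one 8 without centring, 7 scaled and 9 with the block. The acetylated H4 interaction had 1 without centring and 1 with the block. Snf2 pairs at 30 °C numbered 14 scaled and 2 robust, and H4 strain pairs 16 with the block. The block changed no other count by over 1.5 times. On the time-course arrays, deviations of the same set had a mean r of 0.36 in H4 and 0.23 in acetylated H4, against -0.18 and -0.11 for other sets, but the lowest values for the same set were -0.15 and -0.48, so sets were not taken as pairs there. Correlations, medians and counts over gene lists, regions and RNA were not recomputed. For each of these moves the cause was not tested.

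With 1 array or set left out, segments called ranged from 47 to 157 (H4 heat), 68 to 149 (acetylated H4 heat), 0 to 20 (H4 stationary), 14 to 41 (acetylated H4 stationary), 0 to 0 (ratio in stationary phase), 0 to 10 and 3 to 22 (H4 and acetylated H4 over genomic DNA after heat), 0 to 2 and 0 to 3 (H4 and acetylated H4 time courses) and 0 to 1 (acetylated H4 interaction). Pairs called ranged from 21 to 25 (H4 at 30 °C), 0 to 37 (Snf2 at 30 °C), 2 to 17 (Snf2 after heat), 14 to 65 (H4 heat), 9 to 65 (acetylated H4 heat), 0 to 4 (H4 stationary), 0 to 28 (acetylated H4 stationary), 0 to 7 (H4 strain) and 7 to 43 (acetylated H4 strain). With 3 arrays a group, a difference that was not called may still be present.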
